A study of Gallus gallus with 4 samples.

Results

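The EGF family members described here are 6 genes of the chicken lung: the ligands AREG, EGF and NRG1 and the receptors EGFR, ERBB3 and ERBB4. They were taken by symbol from the 24356 genes of each RNA table, and all 6 were found in all 3 tables. Of the 87491 chromatin peaks of embryonic day 13 (E13), 64 were assigned to them in the deposited peak list. The members were chosen by their measured RNA levels in E13 epithelium, above all that of AREG, so these levels are given as a description, with no test.

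The series holds 4 wild-type chicken lung samples with 1 library per group, so no value has a replicate and every interval below covers counting error only. At E13, RNA and accessible chromatin were read from the same nuclei, taken from sorted lung populations that were mixed in roughly similar amounts. At embryonic day 20 (E20), 1 library was made from sorted epithelial cells (called E20 epithelial) and 1 from lung cells depleted of immune cells, which carry CD45 (called E20 CD45neg). How many embryos each library pooled is not given in the sources used here.

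EGF family ligands are made as membrane proteins, and proteases of the ADAM family cut them free. AREG and EGF bind the receptor EGFR, while NRG1, a neuregulin, binds ERBB3 and ERBB4. Bound receptors pair with each other or with ERBB2, which has no known ligand, and signal through adaptors such as GRB2 to the RAS and ERK kinases. In mammals the family acts in branching and maturation of lung epithelium. ERBB3 has little kinase activity and relies on its partner.

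After filtering, 7038 E13 nuclei, 5186 cells of E20 epithelial and 2684 cells of E20 CD45neg were kept, out of 8705, 8341 and 4567 barcodes with 53372394, 31800493 and 13997201 UMIs (counted RNA molecules). E13 and E20 kept no barcode in common, and the E20 libraries shared 5. The median mitochondrial share of UMIs was 42.7% at E13, against 7.45% and 3.62% at E20. Classes were named from marker genes: 4571 E13 nuclei were epithelial-like, 1152 mesenchymal, 470 immune-like, 157 endothelial-like, 97 mesothelial-like and 37 neuronal- or glial-like, and 554 stayed unnamed. The marker list that fitted the unnamed E13 nuclei best was that of fibroblasts, but they are not part of the mesenchymal class. Their COL1A1 level was 690 CPM, against 1254 CPM in mesenchymal nuclei. The E20 epithelial library held 1919 epithelial-like cells, but also 1183 erythroid-like, 818 endothelial-like and 746 mesenchymal cells, and E20 CD45neg held 90 epithelial-like cells. Levels are CPM, the gene's UMIs over all UMIs of the group on 1 common scale, compared for each gene across groups and never between genes.

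Among E13 epithelial-like nuclei, AREG and EGF were highest in different sub-clusters. On all UMIs, AREG was highest in sub-cluster 2, EGF in sub-cluster 1, and NRG1 and ERBB4 were highest in sub-cluster 4, where EGF was lowest. Without mitochondrial, ribosomal protein and haemoglobin genes in the totals, EGF was level in sub-clusters 1 and 0. EGFR and ERBB3 were present in all 7 sub-clusters. High AREG and EGF also occurred together: in the clustering of the whole library, a cluster of 381 epithelial-like nuclei had AREG at 515 CPM and EGF at 155 CPM, both above the epithelial level of 356 and 133 CPM. Sub-cluster 2 (877 nuclei) is called AREG-high because its AREG level was 1.59 times that of all epithelial-like nuclei, past the limit of 1.5. The next sub-cluster, of 53 nuclei, stood at 0.896 times. Sub-cluster 1 (932 nuclei) is called WNT7B/BMPER-high because WNT7B, a WNT ligand, and BMPER, a secreted BMP modulator, stood at 1.35 and 1.54 times the level of all epithelial-like nuclei, past the limit set for each. The sub-cluster next in WNT7B had 1.00 and 0.931 times. Sub-cluster 0, the largest with 1455 nuclei, was led by haemoglobin genes and was kept out of both subsets, and its levels also missed the limits.

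**Figure D1:**
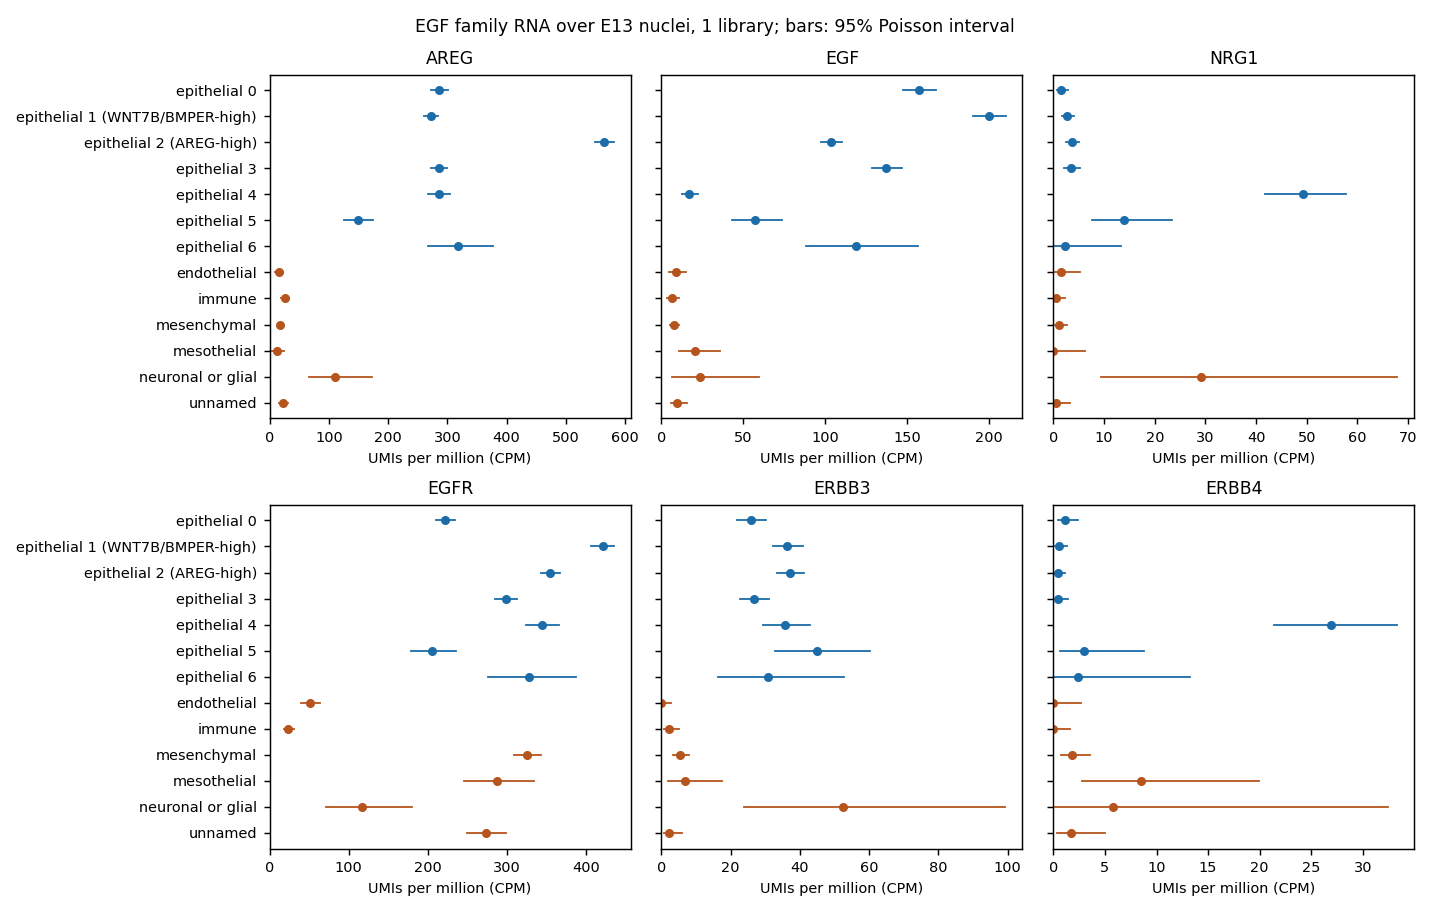
RNA level of each member (CPM, linear axes that differ between panels) in the 7 E13 epithelial sub-clusters (blue) and the other E13 classes (brown); points are group sums and bars 95% Poisson intervals. AREG reaches 565 CPM in sub-cluster 2 and EGF 200.1 CPM in sub-cluster 1, while NRG1 and ERBB4 peak at 49.2 and 26.9 CPM in sub-cluster 4.

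AREG (amphiregulin; ENSGALG00000010866, chromosome 4, start 44741719) had 5229 UMIs or 565 CPM (550 to 580) in AREG-high nuclei. In WNT7B/BMPER-high nuclei it had 2137 UMIs or 272 CPM (260 to 283). The log2 ratio was 1.05 (0.98 to 1.13), a value that the choice of the subset used. The remaining sub-clusters lay between 149 CPM (126 to 175) in sub-cluster 5 and 319 CPM (267 to 377) in sub-cluster 6, so sub-cluster 2 at the top and sub-cluster 5 at the bottom stood clear of their neighbours in the order, and the 5 between them had overlapping intervals. The totals were also taken without mitochondrial, ribosomal protein and haemoglobin genes. AREG then stood at 1151 CPM in sub-cluster 2, 700 CPM in sub-cluster 0 and 523 CPM in sub-cluster 1. With each nucleus thinned to 1000 UMIs, 41.5% of AREG-high nuclei had an AREG UMI against 20.6% of WNT7B/BMPER-high nuclei, with 0 and 3 nuclei too shallow. Without thinning, 89.1% and 62.3% of nuclei had one, where the median nucleus held 7110 and 5928 UMIs. In endothelial-like nuclei the thinned share was 1.27% at a median of 5745 UMIs.

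The size of the AREG contrast depended on how the sub-clusters were cut. At a finer resolution of 1 the log2 ratio was 0.28, since the WNT7B/BMPER-high nuclei then had AREG at 1.29 times the epithelial level. Under the naming rule first used for clusters it was 0.75, and over all alternatives it ranged from 0.28 to 1.19. The groups also differed in other measures: mitochondrial genes took 45.6% of UMIs in AREG-high and 42.6% in WNT7B/BMPER-high nuclei. ATF3 and NR4A2, transcription factors that stress and dissociation induce, stood at 1255 and 225 CPM in AREG-high against 549 and 44.4 CPM in WNT7B/BMPER-high nuclei. FOS, another such gene, stood at 1058 against 1113 CPM. Sub-cluster 4 had ATF3 at 1779 CPM and NR4A2 at 223 CPM, with AREG at 286 CPM. The part of these measures in the AREG level was not tested. AREG-high nuclei were led, against the other epithelial-like nuclei, by PLS1, SERPINB6, UBE2J1, VCL and SMAD1, and WNT7B/BMPER-high nuclei by SEMA3E, CPA6, PRR16, BMPER and ADAMTSL1. In the clustering of the whole library, PLS1, SERPINB6 and SMAD1 also led a cluster of 186 epithelial-like nuclei with AREG at 578 CPM. Its median nucleus held 18416.5 UMIs, against 4211 over all kept E13 nuclei. The part of depth in the AREG level was not tested.

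EGF (ENSGALG00000012155, chromosome 4, start 58074206), the ligand that names the family, was lower in AREG-high nuclei. It had 961 UMIs or 104 CPM (97.4 to 111) in AREG-high and 1574 UMIs or 200.1 CPM (190 to 210) in WNT7B/BMPER-high nuclei, a log2 ratio of -0.94 (-1.06 to -0.83). All alternatives kept the lower value in AREG-high nuclei, from -1.13 to -0.44. Sub-cluster 0 followed with 157 CPM (147 to 168), then sub-cluster 3 of cycling nuclei with 137 CPM (128 to 147). Sub-cluster 4 had 16.8 CPM (12.6 to 22.1), clear of immune-like nuclei (6.43 CPM, 3.60 to 10.6) and mesenchymal nuclei (7.79 CPM, 5.42 to 10.8). Its interval overlapped those of endothelial-like (8.66 CPM), unnamed (9.73 CPM), mesothelial-like (20.5 CPM) and neuronal- or glial-like nuclei (23.3 CPM). With mitochondrial, ribosomal protein and haemoglobin genes left out of the totals, EGF had 385 CPM in sub-cluster 1 and 384 CPM in sub-cluster 0. Mitochondrial genes took 42.6% and 54.9% of UMIs there. Over the 13 E13 groups (7 epithelial sub-clusters and 6 other classes, which share 1 library), the genes whose log2 level ran most like that of EGF were BMPER (r = 0.98), WNT3A (r = 0.97) and ADAMTS18 (r = 0.96). For AREG these included CCDC50 and ESRP2 (r = 0.97 each), and for NRG1 they were SLC35F5, IPPK and TBL1XR1 (r = 0.88 to 0.90). The groups span epithelium and other classes, and AREG and EGF had r = 0.83 with each other, though their subset ratios had opposite signs. BMPER was also used to choose a subset.

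NRG1 (ENSGALG00000015422, chromosome Z, start 54141518) was sparse. It had 34 UMIs or 3.67 CPM (2.54 to 5.13) in AREG-high and 21 UMIs or 2.67 CPM (1.65 to 4.08) in WNT7B/BMPER-high nuclei, so a difference was not detectable at this depth. In sub-cluster 4 it had 152 UMIs or 49.2 CPM (41.7 to 57.7), clear of sub-cluster 5 with 14 UMIs or 14.0 CPM (7.65 to 23.5). The others held 1 to 34 UMIs. Sub-cluster 4 (443 nuclei) was led by KRT14, an airway keratin gene, and by CDC20B, PCDH15 and PTPRN2. Its surfactant gene SFTPA1 stood at 326 CPM, against 4.8 to 24.8 CPM in the other sub-clusters.

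EGFR (ENSGALG00000038089, chromosome 2, start 51959128), the receptor of AREG and EGF, was spread over the epithelium. It had 3288 UMIs or 355 CPM (343 to 368) in AREG-high and 3312 UMIs or 421 CPM (407 to 436) in WNT7B/BMPER-high nuclei. The log2 ratio of -0.24 (-0.32 to -0.18) lay near the median of all genes compared, -0.20, and it was 0.19 with sub-clusters at resolution 1. The lowest sub-clusters were 0 and 5, with 222 CPM (210 to 234) and 206 CPM (179 to 236). The genes most like EGFR over the 13 groups were REPS2 (r = 0.96), NOV and THRA (r = 0.94 each).

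ERBB3 (ENSGALG00000033510, chromosome 33, start 7062029), a neuregulin receptor, had 343 UMIs or 37.1 CPM (33.2 to 41.2) in AREG-high and 286 UMIs or 36.4 CPM (32.3 to 40.8) in WNT7B/BMPER-high nuclei. Its log2 ratio was 0.03 (-0.20 to 0.26). From 25.8 to 45.0 CPM over the 7 sub-clusters, no neighbours in the order had intervals clear of each other. Sub-clusters further apart did: sub-clusters 5, 2 and 1 were clear of sub-cluster 3 (22.7 to 31.1 CPM) and sub-cluster 0 (21.8 to 30.2 CPM). Without mitochondrial, ribosomal protein and haemoglobin genes in the totals, sub-clusters 1, 0 and 3 had 70.0, 62.9 and 54.1 CPM. Over the 13 groups MAP7D2 (r = 0.97), MPPED2 (r = 0.96) and NEXMIF (r = 0.94) were most like it.

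ERBB4 (ENSGALG00000003126, chromosome 7, start 3330256), the other neuregulin receptor, had 4 UMIs in each of the AREG-high and WNT7B/BMPER-high subsets. In sub-cluster 4 it had 83 UMIs or 26.9 CPM (21.4 to 33.3), clear of all other sub-clusters. Clustering of the whole library set a small group apart. A cluster of 64 epithelial-like nuclei held 65 ERBB4 UMIs or 122 CPM (94.0 to 155), and a cluster of 449 nuclei led by SFTPA1 held 20 UMIs or 6.53 CPM (3.99 to 10.1). The smaller cluster was led by genes such as ODAD2 and CDC20B. The cilium genes FOXJ1, TEKT1 and DNAH5 stood there at 159, 320.4 and 2012 CPM, against 5.6, 34.3 and 131 CPM in the larger one. Over the 13 groups KLF5 (r = 0.92), KIF26B (r = 0.87) and KRT14 (r = 0.84) were most like ERBB4. These groups do not set the smaller cluster apart, and KRT14 was among the leading genes of the larger one. Outside sub-cluster 4 each group held 0 to 8 ERBB4 UMIs. NRG1 was present in both clusters, with 31.9 CPM (18.6 to 51.0) and 44.1 CPM (37.0 to 52.2).

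Among genes that reached 50 CPM in 1 of the subsets, 96 of 2345 (4.09%) stood at least 2-fold apart between AREG-high and WNT7B/BMPER-high nuclei, all 96 of them higher in AREG-high. With mitochondrial, ribosomal protein and haemoglobin genes left out of the totals, 148 were higher and 11 lower. Of the members, AREG, EGF and EGFR reached 50 CPM, and AREG, on which the subset was chosen, was past 2-fold. The median log2 ratio of these 3 members was -0.24, which is the EGFR value, beside -0.20 over all genes compared. EGF lay at percentile 0.04 of the genes compared and AREG at percentile 96.4.

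**Figure D2:**
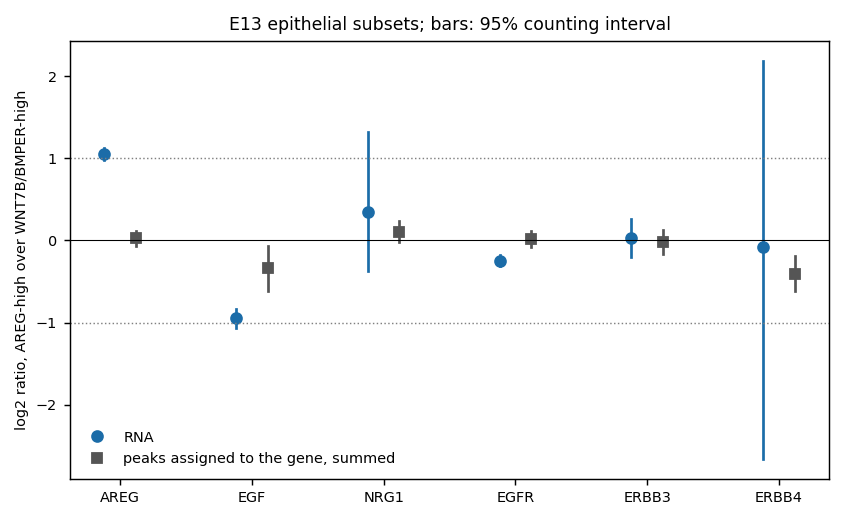
Log2 ratio of AREG-high over WNT7B/BMPER-high E13 epithelial nuclei for the RNA of each member (blue circles) and for its summed chromatin peaks (grey squares), with 95% counting intervals; dotted lines mark 2-fold. AREG RNA lies at 1.05 and EGF RNA at -0.94, while the summed peaks lie between -0.40 and 0.11.

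The rest of the pathway was read from lists of 47 genes found in the tables. None of the 7 other ligands reached 50 CPM. EREG, an EGFR ligand, had 304 UMIs or 32.8 CPM in AREG-high and 89 UMIs or 11.3 CPM in WNT7B/BMPER-high nuclei, a log2 ratio of 1.46 (1.19 to 1.89). TGFA, also an EGFR ligand, had 19.2 and 14.9 CPM. ERBB2 had 20.6 and 22.2 CPM. None of the pathway genes with at least 50 CPM was 2-fold apart between the subsets, where 4.09% of all genes compared were. At least 50 CPM was reached by 2 of the 6 shedding genes, 2 of 7 receptor inhibitors, 4 of 12 adaptors and relay genes and 4 of 14 ERK response genes.

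Of these, STAT3, a transcription factor activated by receptors, was furthest apart, with 547 UMIs in AREG-high and 236 UMIs in WNT7B/BMPER-high nuclei, a log2 ratio of 0.95 (0.76 to 1.20). ERRFI1, which inhibits EGFR, had 56.6 against 31.1 CPM, a log2 ratio of 0.84 (0.64 to 1.09). GRB2 (-0.51), GAB1 (-0.36), ADAM17 (-0.44), the protease that sheds AREG in mammals, and EGR1 (-0.46), an early ERK response gene, had log2 ratios below 0. ADAM10 (0.04), CBLB (0.04), BRAF (0.09), SPRED1 (-0.23), SPRED2 (0.07) and FOS (-0.07) lay closer to 0. The median over the ERK response genes compared was -0.15, beside -0.20 over all genes. Under 50 CPM, DUSP5, an ERK phosphatase of the same list, had 103 UMIs or 11.1 CPM in AREG-high and 19 UMIs or 2.42 CPM in WNT7B/BMPER-high nuclei, a log2 ratio of 1.83. SOS2, an exchange factor for RAS, and ADAM9, a metalloprotease, were also under 50 CPM, with log2 ratios of -0.59 and -0.54. EREG, TGFA, ERBB2, DUSP5, SOS2 and ADAM9 were named after their values were seen.

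In mesenchymal nuclei at E13, AREG and EGF were low and EGFR stood near its epithelial level on all UMIs, while EGFR was low in endothelial-like and immune-like nuclei. AREG had 83 UMIs or 18.5 CPM (14.7 to 22.9) in mesenchymal nuclei against 11995 UMIs or 356 CPM (349 to 362) in epithelial-like nuclei, a log2 ratio of 4.20. EGF had 7.79 CPM (5.42 to 10.8) against 133 CPM (129 to 137), a log2 ratio of 3.93. In mesenchymal nuclei AREG stood at 5.19% and EGF at 5.87% of the epithelial level. Genes of the epithelium stood there at 7.92% (WNT7B), 8.71% (BMPER), 22.6% (EPCAM, an adhesion molecule) and 32.1% (SFTPC, surfactant protein C). Free RNA in the droplets gives UMIs to nuclei that do not make them, and its part in these low values was not tested.

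EGFR had 326 CPM (310 to 343) in mesenchymal and 331 CPM (325 to 337) in epithelial-like nuclei, a log2 ratio of 0.02 (-0.06 to 0.10). Mesothelial-like nuclei (288 CPM, 246 to 335) and the unnamed nuclei (274 CPM, 250 to 299) had overlapping intervals with each other. Endothelial-like nuclei (50.5 CPM, 39.4 to 63.9) and immune-like nuclei (23.6 CPM, 17.8 to 30.7) were lower and clear of each other. These were 15.3% and 7.12% of the epithelial level. Genes of the epithelium stood at 4.39% (NKX2-1) to 16.3% (SFTPC) in endothelial-like nuclei. In immune-like nuclei they stood at 6.51% (BMPER) to 22.1% (SFTPC). The part of free RNA in these EGFR levels was not tested. With mitochondrial, ribosomal protein and haemoglobin genes left out of the totals, EGFR had 677 CPM in epithelial-like and 568 CPM in mesenchymal nuclei. Mitochondrial genes took 46.2% and 37.5% of their UMIs. Over all alternatives the log2 ratio of epithelial-like over mesenchymal nuclei ranged from 0.01 to 0.34. After thinning, which draws from all UMIs, 25.0% of epithelial-like and 24.7% of mesenchymal nuclei had an EGFR UMI, against 2.34% of immune-like nuclei. Without thinning, 69.7%, 52.3% and 8.72% had one, where the median nucleus held 4889, 2948.5 and 4526.5 UMIs. Within the mesenchyme, EGFR was 421 CPM in smooth-muscle-like and 198 CPM in pericyte-like nuclei.

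ERBB3 had 33.0 CPM (31.1 to 35.0) in epithelial-like and 5.34 CPM (3.42 to 7.94) in mesenchymal nuclei, 16.2% of the epithelial level. The part of free RNA in the mesenchymal value was not tested. In 157 endothelial-like nuclei ERBB3 had 0 UMIs, with an upper limit of 2.66 CPM. The 37 neuronal- or glial-like nuclei had 9 ERBB3 UMIs or 52.3 CPM (23.9 to 99.3), with the glial transcription factor gene SOX10 at 93.0 CPM. They also had 19 AREG UMIs or 110 CPM (66.5 to 172), beside EPCAM at 35.7% of its epithelial level. Without thinning, 10.8% of these 37 nuclei had an AREG UMI. Among whole classes, NRG1 was highest in neuronal- or glial-like nuclei, with 5 UMIs or 29.1 CPM (9.44 to 67.8). Epithelial-like nuclei followed with 7.47 CPM, and the mesenchyme had 5 UMIs or 1.11 CPM (0.36 to 2.60). ERBB4 was highest, among whole classes, in mesothelial-like nuclei, with 5 UMIs or 8.52 CPM (2.77 to 19.9). It had 3.11 CPM (2.55 to 3.77) in epithelial-like and 1.78 CPM (0.77 to 3.51) in mesenchymal nuclei, with overlapping intervals. Epithelial sub-cluster 4 alone had NRG1 at 49.2 CPM (41.7 to 57.7) and ERBB4 at 26.9 CPM (21.4 to 33.3). This ERBB4 level was clear of that in mesothelial-like nuclei. Between epithelial-like and mesenchymal nuclei, 34.8% of 2754 genes stood at least 2-fold apart, and so did 2 of the 3 members with 50 CPM or more, AREG and EGF. Of all genes 357 were higher in epithelium and 601 lower, and 748 and 744 with mitochondrial, ribosomal protein and haemoglobin genes left out of the totals.

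At E20, EGF was nearly absent, AREG and EGFR were lower in epithelial-like cells than at E13, and ERBB3 was not lower on all UMIs. Stage, assay and software differed together between E13 and E20 and cannot be told apart. The ratio between the stages also followed the distance between neighbouring genes: over all genes in the epithelium its median log2 value was 0.17, but 1.85 in the quintile of genes with the closest spacing and -2.41 in that with the widest. The members' ratios in epithelium are given beside the median of their spacing quintile. These medians cover genes with at least 50 CPM in either group, a level that NRG1, ERBB3 and ERBB4 did not reach. At least 2-fold apart were 79.1% of the 3148 genes compared with the E20 epithelial library and 79.1% of the 3153 compared with E20 CD45neg. Of the members with 50 CPM or more, 3 of 3 were at least 2-fold lower at E20 in each comparison. Both use the same E13 nuclei. Leaving mitochondrial, ribosomal protein and haemoglobin genes out of the totals moved the median over all genes to -1.24 and the genes 2-fold apart from 1267 higher and 1224 lower to 977 higher and 2565 lower.

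**Figure D3:**
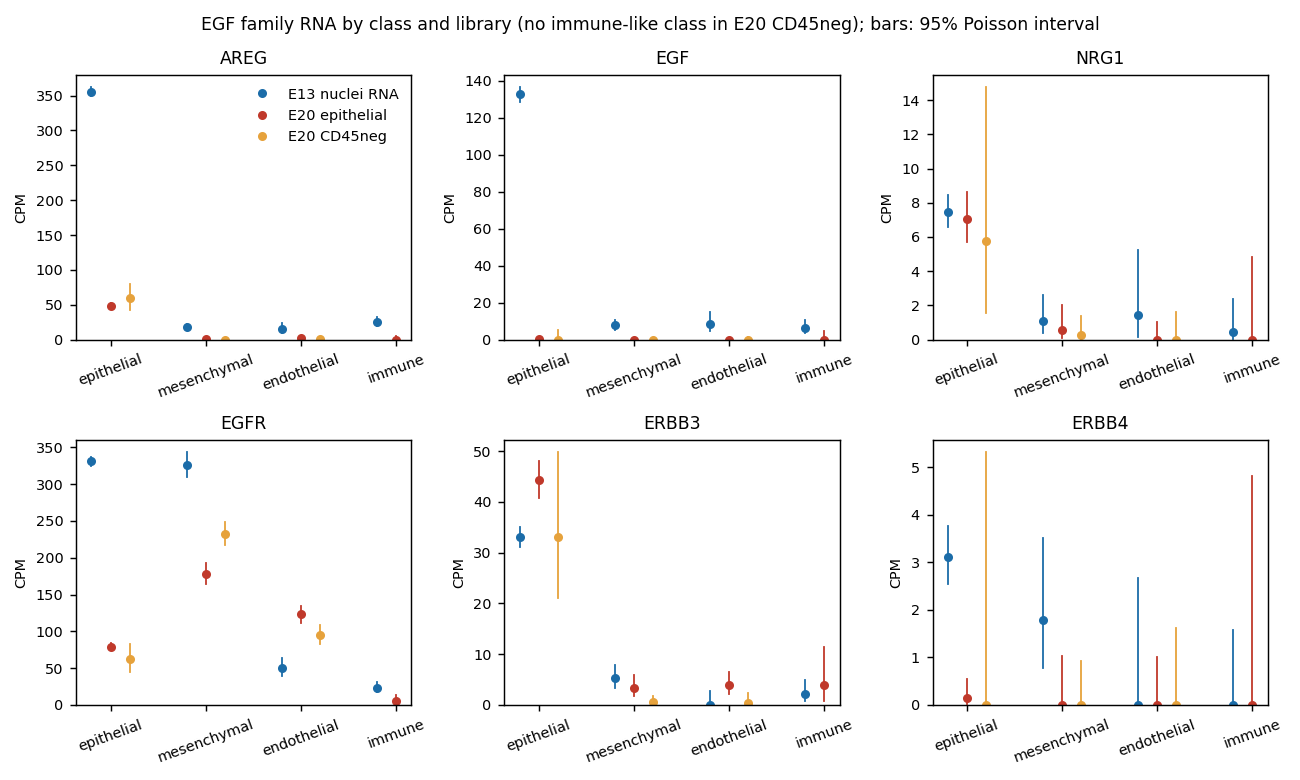
RNA level of each member (CPM, linear axes that differ between panels) in 4 classes of the 3 libraries, with 95% Poisson intervals; E20 CD45neg has no immune-like class. In epithelial-like cells EGF stands at 133 CPM at E13 and under 1 CPM in the E20 epithelial library, while ERBB3 stands at 33.0 and 44.3 CPM.

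In epithelial-like cells, AREG had 649 UMIs or 48.3 CPM (44.6 to 52.1) in E20 epithelial and 41 UMIs or 59.1 CPM (42.4 to 80.1) in E20 CD45neg. The log2 ratios over E13 were -2.86 (-3.00 to -2.77) and -2.57 (-3.07 to -2.15), while the medians of its spacing quintile were -1.32 and -1.31. Mesenchymal cells had 1 and 0 UMIs. Sub-clustering of the E20 epithelium gave 1 group with high AREG: sub-cluster 4 (176 cells) held 265 UMIs or 170 CPM (150 to 191). Sub-cluster 3 had 74.5 CPM (61.2 to 89.8), sub-cluster 5 had 60.0 CPM (38.8 to 88.6) and the large sub-clusters 0, 1 and 2 had 25.2, 28.8 and 22.3 CPM. The clustering of the whole library set no such group apart. AREG was highest there in clusters of 563 and 380 epithelial-like cells, at 67.6 and 67.4 CPM. Sub-cluster 4 was led by ATF3, AREG, NR4A2 and FOS. ATF3 stood there at 544 CPM against 35.0 to 242 CPM in the other sub-clusters of over 50 cells, and FOS at 2804 against 516 to 2091 CPM. EREG, at 39.1 CPM, was also highest there. The part of these early response genes in the AREG level was not tested.

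EGF had 1 UMI among 13448816 from the E20 epithelial epithelium and 0 UMIs in that of E20 CD45neg. Against 4476 UMIs in E13 epithelium, the level in E20 CD45neg was 30.7-fold lower when 3 counts were put in place of 0. The counting interval there allowed a smaller difference, with its upper end at a log2 ratio of -4.64. In E20 epithelial the log2 ratio with 1 CPM added was -6.96. Without the added CPM its counting interval was -16.1 to -8.32, and the median of the spacing quintile of EGF was -1.32.

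EGFR had 1065 UMIs or 79.2 CPM (74.5 to 84.1) in the epithelium of E20 epithelial, a log2 ratio of -2.05 (-2.16 to -1.97) over E13, which lay above the median of -2.41 of its spacing quintile. In E20 CD45neg it had 43 UMIs or 62.0 CPM (44.8 to 83.5), a log2 ratio of -2.40 (-2.88 to -1.99) beside a median of -2.37. Within the epithelium of E20 epithelial, EGFR ranged widely. Sub-cluster 0 had 186 CPM (170 to 204) and sub-cluster 5 had 202 CPM (161 to 250), with SFTPC at 3894 and 15144 CPM. Sub-cluster 3 had 113 CPM (96.6 to 132). Sub-clusters 1, 2 and 4 had 37.1 CPM (31.1 to 44.0), 34.4 CPM (28.6 to 41.0) and 37.8 CPM (28.8 to 48.7), with SFTPC between 104650 and 113143 CPM. EGFR was higher in mesenchymal cells, 178 CPM (164 to 192) in E20 epithelial and 233 CPM (218 to 248) in E20 CD45neg. These classes hold unlike cells. A cluster with BMP5 and APCDD1L among its leading genes stayed unnamed in E20 epithelial (95 cells, EGFR 296 CPM). In E20 CD45neg a cluster with these leading genes (220 cells, 383 CPM) was part of the mesenchymal class. Endothelial-like cells had 123 CPM (112 to 135) in E20 epithelial and 95.3 CPM (83.0 to 109) in E20 CD45neg. At E13 they had 50.5 CPM, a value in which the part of free RNA was not tested. No quintile median was computed for this class. Immune-like and erythroid-like cells of E20 epithelial had 5.22 and 3.33 CPM.

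ERBB3 had 596 UMIs or 44.3 CPM (40.8 to 48.0) in the epithelium of E20 epithelial and 33.1 CPM (21.0 to 49.7) in E20 CD45neg. The log2 ratios over E13 were 0.41 (0.28 to 0.57) and 0.00 (-0.66 to 0.60), below the medians of 1.85 and 1.88 of its spacing quintile. With mitochondrial, ribosomal protein and haemoglobin genes left out of the totals, the first was -0.28. NRG1 had 95 UMIs or 7.06 CPM (5.72 to 8.64) in epithelial-like cells of E20 epithelial, beside 7.47 CPM (6.58 to 8.45) at E13. Its log2 ratio was -0.07 (-0.44 to 0.27), above the median of -2.41 of its spacing quintile. With mitochondrial, ribosomal protein and haemoglobin genes left out of the totals, NRG1 had 8.86 CPM in these cells and 15.3 CPM at E13. Over all alternatives its log2 ratio ranged from -0.99 to -0.04. Of the sub-clusters of over 50 cells, NRG1 was highest in 0, with 17.6 CPM (12.8 to 23.6). ERBB4 had 2 UMIs in these cells, beside 105 UMIs at E13, and 0 in E20 CD45neg, too few to read beside the median of -2.41 of its quintile. ERBB2 had 35.0 CPM, beside 18.9 CPM at E13.

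Between epithelial-like and mesenchymal E13 nuclei, 3 of the 13 pathway genes with at least 50 CPM were 2-fold apart, all lower in epithelium, where 34.8% of all genes compared were. These were ADAM12, a metalloprotease, with 7.20 against 729 CPM, LRIG3, of a family that holds receptor inhibitors, with 18.1 against 60.3 CPM, and the adaptor GAB2 with 18.4 against 69.2 CPM. Between E20 epithelial and E13 epithelium, 2 of 12 were 2-fold higher and 5 lower, where 79.1% of all genes compared were 2-fold apart. Higher at E20 were STAT3, with 116 against 37.4 CPM, and the protease ADAM9, at 51.2 CPM with a log2 ratio of 1.12. Lower were CBLB, GAB1, BRAF, SPRED1 and SPRED2, of which SPRED2, an ERK pathway inhibitor, had 2.75 against 103 CPM. The shift with gene spacing given above touches these ratios too.

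The 64 peaks of the members comprised 8 for AREG, 5 for EGF, 18 for NRG1, 16 for EGFR, 5 for ERBB3 and 12 for ERBB4. They include 2 promoter peaks for AREG and 1 each for NRG1, EGFR and ERBB3, and none for EGF or ERBB4. Over AREG-high and WNT7B/BMPER-high nuclei together, 48 of them held at least 50 counts. None of the 48 was 2-fold apart, and over all peaks 1.34% of 67995 were. The summed AREG peaks had 217 and 213 CPM of peak counts in the subsets, a log2 ratio of 0.03 (-0.07 to 0.12), where AREG RNA had 1.05. EGF peaks had 21.6 and 27.4 CPM, a log2 ratio of -0.34 (-0.62 to -0.06), and ERBB4 peaks 35.9 and 47.5, a log2 ratio of -0.40 (-0.61 to -0.19). For EGFR, ERBB3 and NRG1 the values were 0.02, -0.02 and 0.11, with intervals that include 0.

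Between epithelial-like and mesenchymal nuclei, 63 member peaks had enough counts. Of these, 24 were at least 2-fold higher in epithelium and 8 at least 2-fold lower. Over all 85629 peaks compared, 49.7% were 2-fold apart, with 26548 higher in epithelium and 15999 lower. Summed AREG peaks had 207 CPM in epithelium and 39.7 in mesenchyme, a log2 ratio of 2.38 (2.18 to 2.58). The most open of them in epithelium lay at chr4:44749046-44749929, with 48.8 CPM in epithelium, 4.76 in mesenchyme and 3.04 in immune-like nuclei. The ERBB3 promoter peak at chr33:7061797-7062705, which is also assigned to 2 genes without a symbol, had 34.2 and 5.13 CPM. The EGFR promoter peak at chr2:51959035-51959961 had 44.8 in epithelium, 41.2 in mesenchyme, 30.9 in endothelium and 11.7 in immune-like nuclei. Other EGFR peaks differed by class, such as chr2:51944056-51944947 with 32.8 in epithelium and 3.11 in mesenchyme, and chr2:51938239-51939057 with 1.87 and 18.1.

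**Figure D4:**
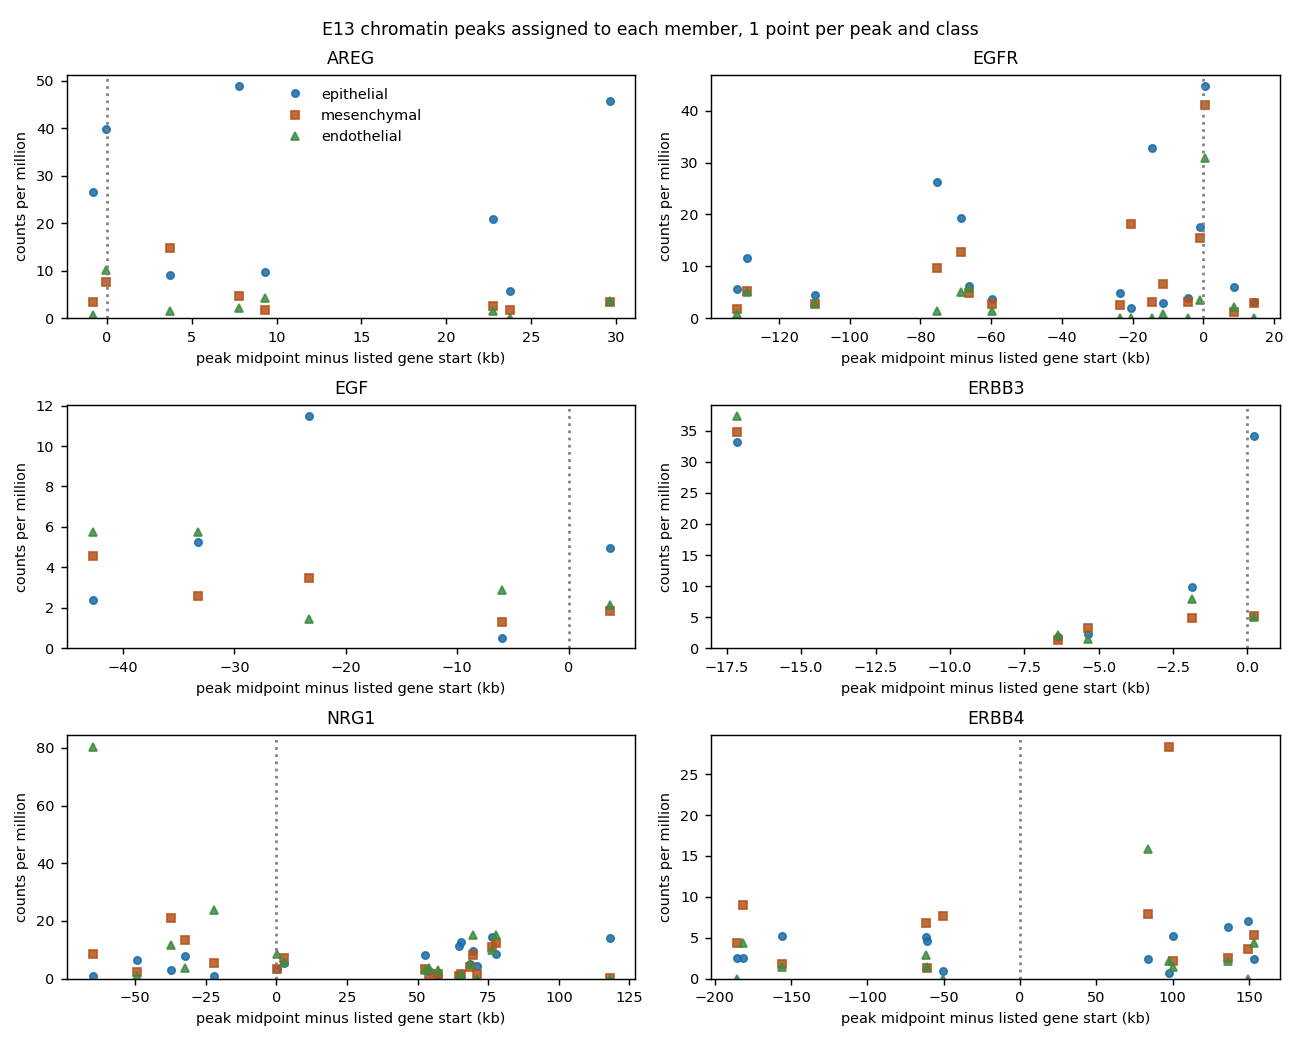
Peak counts (CPM) of each member's E13 peaks in 3 classes, against the distance in kb between the peak's middle and the listed gene start (dotted line), along the chromosome. The AREG peaks sum to 207 CPM in epithelial-like nuclei (blue) and 39.7 CPM in mesenchymal nuclei (brown). In endothelial-like nuclei (green) 1 NRG1 peak reaches 80.5, and in mesenchymal nuclei 1 ERBB4 peak reaches 28.4.

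Some member peaks were open where the gene's RNA was low. The NRG1 peak at chrZ:54076096-54077018 had 80.5 CPM in endothelial-like nuclei, 8.42 in mesenchymal and 0.80 in epithelial-like nuclei, while endothelial-like nuclei held 2 NRG1 UMIs. The ERBB4 peak at chr7:3427744-3428660 had 28.4 CPM in mesenchymal, 43.6 in mesothelial-like, 52.9 in the unnamed and 0.65 in epithelial-like nuclei. ERBB4 RNA in these stood at 1.78, 8.52, 1.72 and 3.11 CPM. The mesothelial-like value, from 5 UMIs, was the highest of the classes, so peak and RNA were not opposed there. The cluster of 64 nuclei in which ERBB4 RNA was highest had 43.3 CPM over the ERBB4 peaks, beside 45.0 in all epithelial-like nuclei. At EGFR, a peak at chr2:51826897-51827818 that is also assigned to LANCL2 had 27.8 CPM in sub-cluster 4 against 3.80 in AREG-high and 3.29 in WNT7B/BMPER-high nuclei. The single peaks given here were chosen after their values were seen.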

How the data were processed

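The authors deposited raw counts of UMIs for every gene in each barcode and, at E13, raw counts for every peak, with peak positions and their assigned genes. Per the file headers these came from cellranger-arc 2.0.0 (E13) and cellranger 4.0.0 (E20). The submitters' processing notes name galGal6, Cell Ranger, Seurat and Signac. Positions are printed as in the files, starting at 1.

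Barcodes with at least 500 genes were kept, at E20 with at most 20% mitochondrial UMIs; a mitochondrial limit was not applied at E13. Doublets, found by likeness to simulated pairs, were left out at 0.8% per 1000 cells. Each library was clustered on 2000 genes, 30 components and 15 neighbours with leidenalg 0.10.2 at resolution 1, and epithelial-like cells again at 0.5, without the members, pathway genes and markers. The naming rule was loosened after the clusters, and the AREG, WNT7B and BMPER levels that result, had been seen: haemoglobin genes under 1% of UMIs and, without WT1, mesothelial genes no longer kept a cluster unnamed. The rule first used is among the alternatives. The members and lists were chosen with earlier results of these data known.

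UMIs were summed per group. Log2 ratios add 1 CPM, and counts of genes past 2-fold cover those that reach 50 CPM in either group. Intervals are 95% exact Poisson, Clopper-Pearson or conditional binomial and cover counting error only. With 1 library per group no test was made. Named genes are all members, up to 4 pathway genes per list with the largest distance between the subsets among those with at least 50 CPM, and the 3 genes most like each member; 1 of those for AREG is not reported here. The calculation of ratios was tested on simulated counts.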

Additional observations from a re-analysis of the deposited data

How the results depend on the processing

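No paired analysis was possible because each group has 1 library. The AREG log2 ratio between the subsets, 1.05, was 1.19 with at least 1000 genes per nucleus, 0.72 with doublets kept, 0.84 with at most 40% mitochondrial UMIs, 0.28 with sub-clusters at resolution 1, and 0.75 under the first naming rule, an alternative added after seeing the data that left 2057 nuclei unnamed and 243 AREG-high. With 1000 genes and at the 40% limit 1 of the subset limits was met by no sub-cluster, so the nearest was taken. It was 1.14 without mitochondrial, ribosomal protein and haemoglobin genes in the totals, and 1.15 also without ENSGALG00000050132, likewise added later. The number of members 2-fold apart between the subsets, 1, was 0 with doublets kept, 0 at the 40% limit, 0 at resolution 1, and 2 with members and pathway genes among the clustering genes. It was 1 under the other alternatives, but under the first naming rule that member was EGF (-1.13) and not AREG. Requiring 20 counts per peak gave 1 member peak 2-fold apart, in place of 0. The EGFR ratio between the subsets reversed to 0.19 at resolution 1, and the ERBB3 ratio of E20 over E13 to -0.28 and -0.55 under the 2 reduced totals. The cause was not tested. The counts of members 2-fold apart between epithelium and mesenchyme (2 to 3) and between stages (3) stayed within 1.5 times. NRG1 and ERBB4 in the subsets rest on 4 to 34 UMIs, which limits what can be seen.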

Other observations

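Ligand and receptor RNA were read in the same nuclei after thinning to 1000 UMIs. Of AREG-high nuclei with an AREG UMI, 28.3% (23.7 to 33.2) of 364 had an EGFR UMI, beside 28.5% (24.6 to 32.6) of 513 without one. In WNT7B/BMPER-high nuclei the shares were 34.6% (27.8 to 41.8) of 191 and 31.7% (28.4 to 35.2) of 738. An EGF UMI was found in 10.7% and 10.1% of AREG-high nuclei with and without an AREG UMI. Without thinning, 89.1% of AREG-high and 62.3% of WNT7B/BMPER-high nuclei had an AREG UMI. Many nuclei counted here as without one therefore did hold AREG. The similar shares cannot show whether AREG goes with EGFR or EGF within nuclei.

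In E20 CD45neg, an unnamed cluster of 9 cells with MBP and SLIT1 among its leading genes and the glial gene SOX10 at 801 CPM, held 13 ERBB3 UMIs or 306 CPM (163 to 524). This cluster was singled out after its values were seen. BTC, another EGFR ligand, stood at 68.2 CPM (54.6 to 84.1) in the unnamed, 30.4 CPM in mesenchymal and 2.01 CPM in epithelial-like cells of E20 epithelial.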
